A study of Caenorhabditis elegans with 2 samples.

Results

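Short gaps between neighbouring genes that point the same way along the chromosome were examined for RNA polymerase II in early embryos of Caenorhabditis elegans. A gap was taken from the base after the 3′ end of one protein-coding gene to the base before the 5′ end of the next one on the same strand, in the Ensembl annotation of the WBcel235 assembly, and was kept when it measured 1 to 500 bp. The rule gave 3446 gaps of the 17270 gaps of at least 1 bp between adjacent protein-coding genes, or 31.9% of the 10796 same-strand neighbour pairs. No measured value entered the rule, but it was chosen with earlier results of these data known. Chained together, the gaps formed 2588 runs, which held 6034 of 19973 protein-coding genes (30.2%). Most runs (1982) had 2 genes, 436 had 3, 111 had 4, 42 had 5 and 17 had 6 or more, with 9 genes in the longest. The median gap was 187 bp, with quartiles of 102 and 337 bp. The gaps covered 0.756% of the genome, and the gaps with 500 bp on either side, called windows here, covered 4.15%.

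The binding data came from chromatin immunoprecipitation sequencing (ChIP-seq) with an antibody to AMA-1, which is the largest polypeptide of the polymerase II enzyme. A single group was studied, early embryos of the wild-type strain N2 with both sexes pooled, as 2 biological replicates from whole organisms that shared 1 control. Whole embryos mix many cells, so more polymerase per cell and more cells with polymerase at a site cannot be told apart. The authors' lists hold 30000 peaks for each replicate, 30000 for both replicates pooled, and an optimal list of 724 peaks, which were the 724 pooled peaks of highest signal. A summit is the base of highest signal in a peak. Signal is the authors' own value with an unstated scale, so it served only to rank peaks within a list. To compare replicates with the optimal list, the 724 highest peaks of each replicate's own list were used. The pooled and optimal lists contain the reads of both replicates, so agreement of a replicate with them is partly built in. Read depth is unknown. With 1 group there is no contrast to test, and each share has a 95% interval from the exact binomial distribution, which reflects counting error alone. Neighbouring gaps share sequence, and the windows of 304 gaps overlap another window.

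Many C. elegans genes lie in operons, in which several genes are transcribed from one promoter into a single precursor RNA. The precursor is cut into separate messages by 3′ end formation of the upstream gene and by trans-splicing, which joins a short spliced leader to the downstream gene, usually SL2 for downstream operon genes. Gaps inside operons are typically short, but short gaps also occur between genes that are not in an operon, and the gaps described here were chosen by distance and strand alone. Polymerase passes the 3′ end of a gene before it stops, and in an operon it goes on into the next gene.

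The sequences of 8 gaps with highly ranked summits are shown because they are the stretches between the 3′ end of one message and the start of the next, and because they differ in how they close. They were read from the RefSeq genome sequence of WBcel235 on the strand of the genes, 5′ to 3′. Capitals mark TTTCAG where it lies in the last 10 bases, the letters of the C. elegans splice acceptor consensus, and otherwise AG where a gap closes with those bases. The gap of hrpa-1, the gene of an hnRNP A1 homologue, and F42A6.6 lies at chrIV:3336874-3336919 on the minus strand. The gap of EEED8.15 and tofu-6, a piRNA pathway gene, lies at chrII:5421094-5421247 on the plus strand. The gap of C16A3.5 and znf-622, a zinc finger gene, lies at chrIII:6381518-6381633 on the plus strand. The gap of swsn-4, the ATPase of the SWI/SNF chromatin remodeller, and ard-1, a dehydrogenase gene, lies at chrIV:11131163-11131278 on the plus strand. The gaps of mutd-1 and cyn-12, a cyclophilin gene, at chrIV:7133218-7133447 and of hecd-1, a HECT ubiquitin ligase gene, and mutd-1 at chrIV:7134084-7134344 follow each other on the minus strand. The gap of cdl-1, which encodes the histone stem-loop binding protein, and tag-209 lies at chrII:10787273-10787311 on the plus strand. The gap of cdc-25.2, a Cdc25 phosphatase gene, and F16B4.7 lies at chrV:1585533-1585710 on the plus strand.
hrpa-1/F42A6.6: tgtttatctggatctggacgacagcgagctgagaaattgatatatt
EEED8.15/tofu-6: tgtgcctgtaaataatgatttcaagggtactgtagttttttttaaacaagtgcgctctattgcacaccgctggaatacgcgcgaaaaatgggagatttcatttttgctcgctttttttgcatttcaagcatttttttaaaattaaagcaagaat
C16A3.5/znf-622: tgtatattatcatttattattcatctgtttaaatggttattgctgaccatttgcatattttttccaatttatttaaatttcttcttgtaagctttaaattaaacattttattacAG
swsn-4/ard-1: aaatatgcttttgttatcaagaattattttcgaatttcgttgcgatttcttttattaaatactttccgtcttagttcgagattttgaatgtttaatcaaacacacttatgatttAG
mutd-1/cyn-12: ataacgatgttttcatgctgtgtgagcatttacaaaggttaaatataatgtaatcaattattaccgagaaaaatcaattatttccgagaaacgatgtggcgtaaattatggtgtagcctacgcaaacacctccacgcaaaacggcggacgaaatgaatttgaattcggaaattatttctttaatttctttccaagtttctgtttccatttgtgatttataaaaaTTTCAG
hecd-1/mutd-1: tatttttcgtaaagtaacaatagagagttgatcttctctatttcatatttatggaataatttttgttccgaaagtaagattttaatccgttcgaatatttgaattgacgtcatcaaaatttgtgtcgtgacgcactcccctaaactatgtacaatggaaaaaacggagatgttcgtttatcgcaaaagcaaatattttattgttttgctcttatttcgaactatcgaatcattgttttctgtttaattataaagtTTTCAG
cdl-1/tag-209: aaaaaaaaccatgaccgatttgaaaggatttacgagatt
cdc-25.2/F16B4.7: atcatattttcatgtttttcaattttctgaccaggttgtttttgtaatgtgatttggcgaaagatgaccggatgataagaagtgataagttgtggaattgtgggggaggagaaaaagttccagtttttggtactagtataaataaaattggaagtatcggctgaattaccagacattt
TTTCAG is present near the downstream start in 2 of these 8 gaps, and another 2 close with AG alone. The 8 gaps run from 39 to 261 bases and are AT-rich, with G and C making up 20.7% to 39.1% of their bases.

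Summits lay at short same-strand gaps more often than at gaps in general, and most of them lay past the gap. In the optimal list 146 of the 3446 windows held a summit (4.24%, interval 3.59 to 4.96%), while 2.44% of all 17270 windows around gaps between protein-coding genes did. Replicate 1's own highest peaks gave 115 windows (3.34%, against 2.14% of all windows), and replicate 2's gave 146 (4.24%, against 2.48%). The 2000 highest pooled peaks gave 370 windows (10.7%, against 5.63%). All of these lists placed more summits at the short same-strand gaps than at all gaps, and replicate 1 did so with fewer. The 152 summits in the windows were 21.0% of the optimal list. Per base, the windows held 5.06 times the genome's mean of 0.00722 summits per kb in the optimal list, 3.90 times in replicate 1 and 4.96 times in replicate 2.

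The gaps themselves held few of these summits. A summit inside the gap was found in 24 gaps (0.696%, interval 0.447 to 1.03%), against 1.02% of all gaps of any length. Per base the gaps held 0.0317 summits per kb, 4.38 times the genome's mean, with 3.11 times in replicate 1 and 3.65 times in replicate 2.

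Other kinds of short gap give the scale. Windows around same-strand gaps over 500 and up to 1000 bp held a summit in 2.04% of cases (interval 1.47 to 2.76%), with a density 1.68 times the genome's mean. Convergent gaps of 1 to 500 bp, where 3′ ends of genes face each other, gave 3.07% (37 of 1206, interval 2.17 to 4.20%) and 4.09 times the mean. Divergent gaps of 1 to 500 bp, where 5′ ends face each other, gave 2.23% (20 of 896, interval 1.37 to 3.43%) and 3.61 times the mean. In the optimal list the interval of the short same-strand gaps lies above that of the longer ones and that of the divergent ones, and overlaps that of the convergent ones. Replicate 2's list gave the same layout, with 2.12% at divergent gaps (interval 1.28 to 3.29%). In replicate 1's list the interval of the short same-strand gaps (2.76 to 3.99%) overlapped that of the divergent ones (2.57%, interval 1.63 to 3.83%), and the densities were 3.90, 3.99 and 3.85 times the mean at same-strand, convergent and divergent gaps. Replicate 1's list thus separates the short same-strand gaps from the longer ones (1.94%, interval 1.38 to 2.65%) but not from the other kinds of short gap.

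The sides of the gap differed. Summits in the flanks were counted gap by gap, so a summit shared by neighbouring gaps counts at each. Of 133 such counts in the optimal list, 122 fell in the 500 bp on the downstream gene's side and 11 on the upstream gene's side. Thus 91.7% (interval 85.7 to 95.8%) were downstream, and the interval treats repeats as separate. Replicate 1 gave 93 downstream and 13 upstream (87.7%), and replicate 2 gave 125 and 8 (94.0%). The last 500 bp before the gap thus carried about the density of the genome as a whole (0.00639 summits per kb, 0.885 times the mean), and the first 500 bp after it carried 0.0708 summits per kb, 9.81 times the mean. At same-strand gaps over 500 and up to 1000 bp most summits lay in the gap itself (26), with 11 in the downstream flank and 6 in the upstream flank. There the downstream share of flank summits was 64.7%, with a wide interval of 38.3 to 85.8%.

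**Figure D1:**
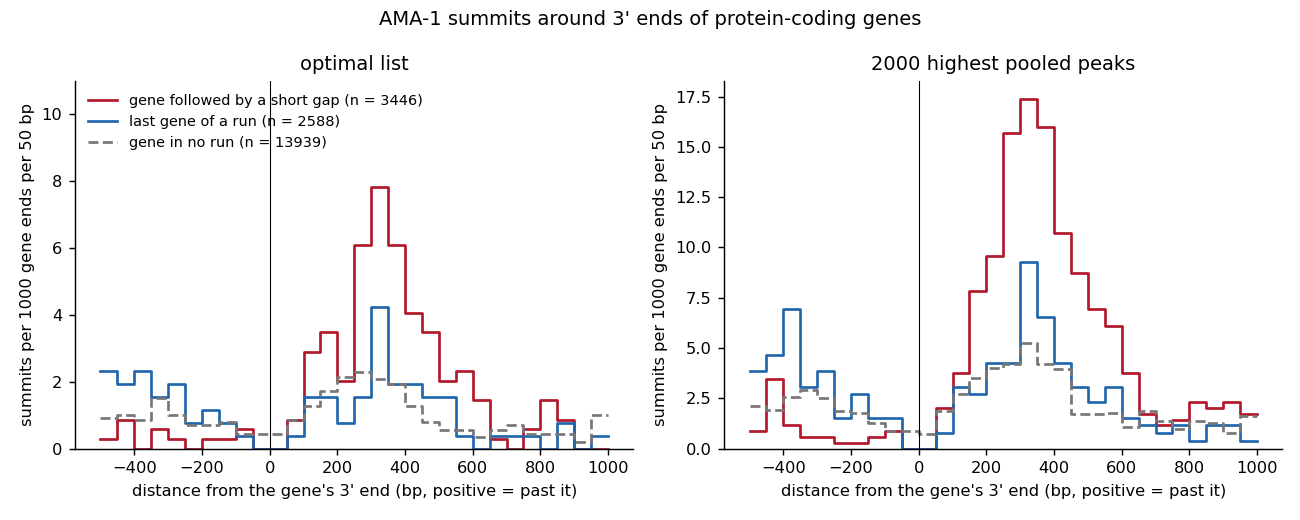
Optimal summits (left) and the 2000 highest pooled peaks (right) by distance from the annotated 3′ end of protein-coding genes in bins of 50 bp, as summits per 1000 gene ends. Genes followed by a short gap (red, n = 3446) rise to 7.84 per 1000 ends in the bin from 300 to 350 bp in the optimal list, above last genes of runs (blue, n = 2588) and genes in no run (grey, dashed, n = 13939).

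Measured from the upstream gene, the summits formed a hump some way past the 3′ end. The plot of summits around 3′ ends shows it highest 300 to 350 bp past the end, with 7.84 optimal summits per 1000 ends for genes followed by a short gap. Last genes of runs reached 4.25 per 1000 ends in the same bin. Genes in no run had a lower hump at a similar distance, with 2.08 in that bin. They rose from 0.430 in the first 50 bp past the end to at most 2.30, from 250 to 300 bp. The bin and the height differ between lists. For genes followed by a short gap, replicate 1 had 3.48 per 1000 ends in that bin and its highest value, 6.38, from 350 to 400 bp, while replicate 2 had 5.80 there and its highest, also 6.38, from 250 to 300 bp. Last genes had 1.16 in that bin in replicate 1 (3 summits) and 3.09 in replicate 2. Among all optimal summits 1 to 1000 bp past the upstream 3′ end of a short gap (158, counted gap by gap), the median distance was 350 bp. The quartiles were 266 and 458 bp. The medians were 375 bp in replicate 1 and 355 bp in replicate 2. Of these 158 summits, 134 (84.8%) lay past the downstream gene's 5′ end. Whether they also lay before its 3′ end was not checked.

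The distance from the upstream 3′ end changed little with gap length, while the distance from the downstream 5′ end followed the gap. In gaps of 1 to 100 bp the optimal summits lay at a median of 386 bp past the upstream 3′ end and 286 bp past the downstream 5′ end (53 summits). In gaps over 100 and up to 200 bp the medians were 352 bp and 232 bp (62 summits). In gaps over 200 and up to 300 bp they were 336 bp and 62.5 bp (14 summits). Up to this length the typical summit is still past the downstream 5′ end. In gaps over 300 and up to 400 bp the median past the 3′ end was 332 bp and the median position from the 5′ end was -8 bp, just before the downstream gene (19 summits). In gaps over 400 and up to 500 bp the values were 292 bp and -152 bp, so that the typical summit lay in the gap (10 summits). The 3′ distance thus spanned 292 to 386 bp over the classes and the 5′ distance ran from 286 to -152 bp. Beyond the 500 bp limit, gaps over 500 and up to 750 bp had medians of 305 bp past the 3′ end and -278 bp from the 5′ end (19 summits).

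Both replicates had this order. Across the same 5 classes, replicate 1's medians past the 3′ end were 381, 367, 327, 370 and 383 bp, and replicate 2's were 380, 362, 328, 316 and 375 bp. Their medians from the 5′ end fell from 302 to -61.0 bp in replicate 1 and from 284 to -82.5 bp in replicate 2. The choice of window bears on such medians, since a window of 1000 bp bounds the distances it can hold. Taken instead from 500 bp before to 500 bp after the downstream 5′ end, the optimal medians past the 3′ end were 350, 341, 298, 323 and 292 bp for the 5 classes. The longest class, over 750 and up to 1000 bp, had 344 bp in the first window and 976 bp in the second, so no distance can be given for it.

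**Figure D2:**
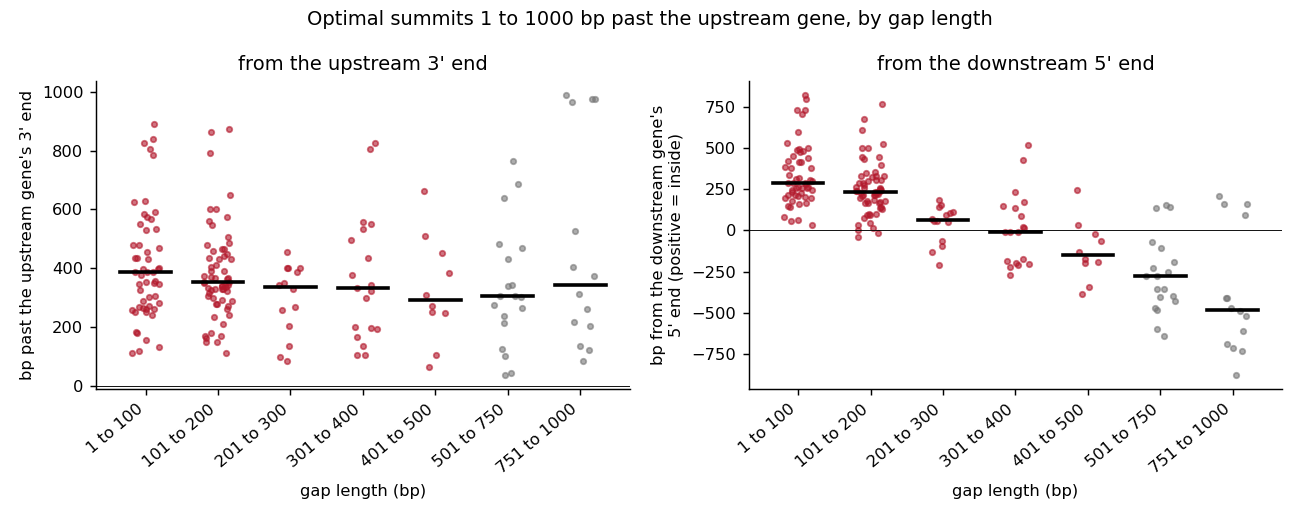
Each point is 1 optimal summit at 1 gap, lying 1 to 1000 bp past the upstream gene, drawn by gap length class. Its distance is given past the upstream 3′ end (left, bp) and from the downstream 5′ end (right, bp, positive past that end). Black bars are medians, which stay between 292 and 386 bp on the left for gaps of 1 to 500 bp (red) and fall from 286 to -152 bp on the right. Grey points are longer gaps.

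Shorter gaps carried summits more often. Within 500 bp past the upstream 3′ end an optimal summit was found in 4.55% of gaps of 1 to 100 bp (interval 3.20 to 6.24%) and in 5.01% of gaps over 100 and up to 200 bp (3.75 to 6.53%). The share was 2.42% up to 300 bp (interval 1.33 to 4.02%), 2.34% up to 400 bp and 1.60% up to 500 bp. Longer same-strand gaps went on at 1.15% (up to 1000 bp), 0.899% (up to 2000 bp) and 0.766% (over 2000 bp). The base span searched is the same 500 bp in each class, so the length of the gap does not enter the size of the window. Neighbouring classes have overlapping intervals throughout in the optimal list, the classes on either side of 200 bp included.

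In replicate 1 the 5 classes up to 500 bp gave 3.41, 3.24, 1.90, 1.26 and 2.00%, and in replicate 2 they gave 4.29, 5.30, 2.76, 2.16 and 0.998%. Both replicates had their higher shares in the classes up to 200 bp, and they differed in the order of the last classes. The 2000 highest pooled peaks fell from 11.9% and 11.8% in the classes up to 200 bp to 3.99% over 400 and up to 500 bp and 2.44% over 500 and up to 1000 bp. For the whole windows the optimal shares were 5.30, 5.80, 3.11, 3.06 and 2.00%. Close to the limit of 500 bp, 4 of 244 windows around gaps over 450 and up to 500 bp held a summit (1.64%). Of those around gaps over 500 and up to 550 bp, 7 of 218 did (3.21%). Counts this small cannot tell whether the limit marks a step.

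**Figure D3:**
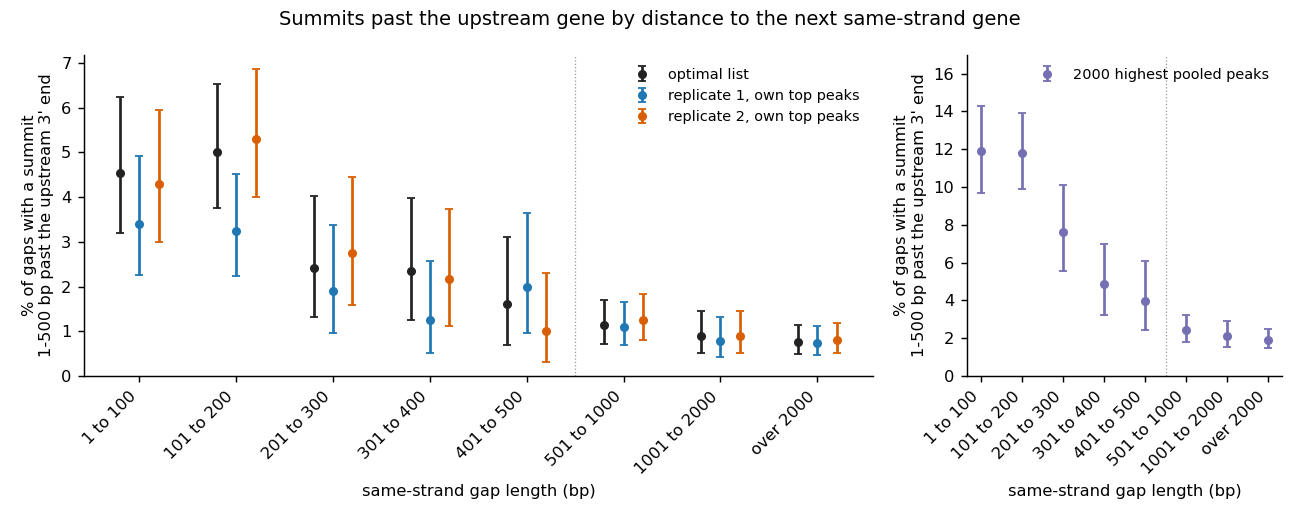
Percent of same-strand gaps with a summit 1 to 500 bp past the upstream 3′ end, by gap length (bp), for the optimal list and each replicate's own highest peaks (left) and the 2000 highest pooled peaks (right). Bars are exact binomial 95% intervals and the dotted line marks the 500 bp limit. The optimal share falls from 4.55% and 5.01% in the classes up to 200 bp to 0.766% above 2000 bp.

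Inside a run the ends of a gene differed according to whether a short gap followed. An optimal summit lay in the 500 bp past the 3′ end of 3.40% of first genes of a run (88 of 2588, interval 2.74 to 4.17%) and of 3.96% of middle genes (34 of 858). For last genes, which no same-strand gap of 1 to 500 bp follows, the share was 1.55% (40 of 2588, interval 1.11 to 2.10%). For genes in no run it was 1.46% (203 of 13939). Same-strand neighbours that overlap, as mai-1 and gpd-2 do, are not chained, so last genes and genes in no run can have a close neighbour. Over all protein-coding genes it was 1.83%. First and middle genes stand above that share and last genes lie within counting error of genes in no run. Replicate 1 gave 2.51, 2.68, 1.35 and 1.25% for first, middle, last and unchained genes, and replicate 2 gave 3.48, 3.61, 1.51 and 1.39%.

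The 5′ ends gave the mirror pattern. The first 500 bp from the 5′ end into the gene were taken whatever the gene's length. They held an optimal summit in 0.502% of first genes, 3.73% of middle genes, 3.25% of last genes and 0.581% of genes in no run. Over all protein-coding genes the share was 1.05%. Replicate 1 gave 0.502, 3.15, 2.40 and 0.495%, and replicate 2 gave 0.580, 3.96, 3.44 and 0.624%. These are in large part the same summits as those past the 3′ ends, seen from the other gene, so the pair of patterns is 1 observation. First genes of runs, which carry the run's annotated 5′ end, had summits there about as often as genes in no run. Within the last 500 bp before the 3′ end, genes followed by a short gap held a summit in 0.319% of cases, last genes in 1.24% and genes in no run in 0.811%.

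**Figure D4:**
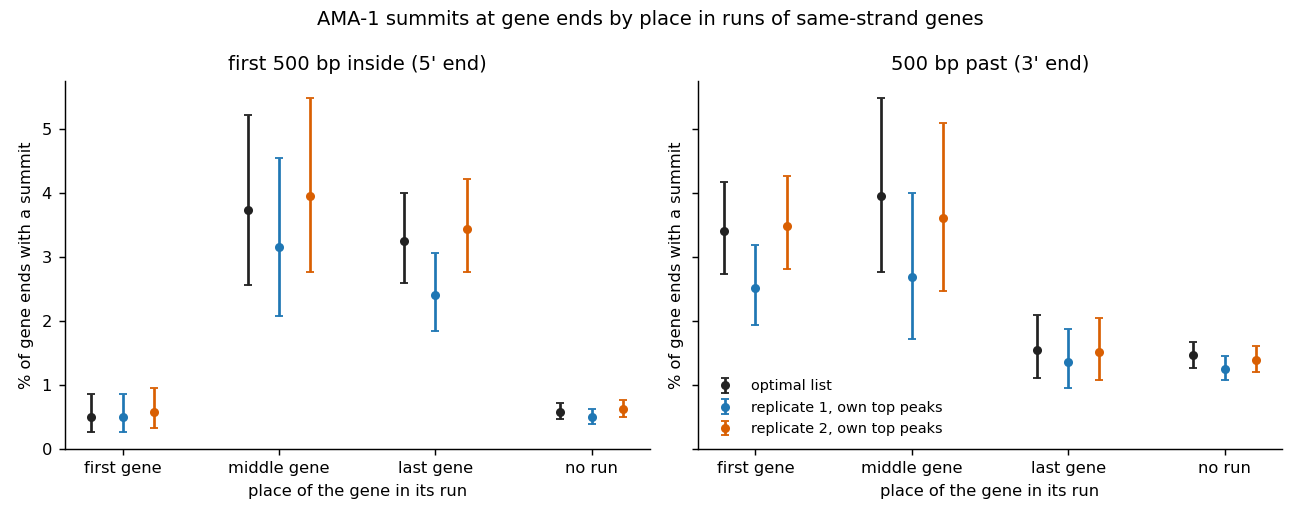
Percent of genes with a summit in the first 500 bp inside the 5′ end (left) and in the 500 bp past the 3′ end (right), by place in a run of same-strand genes, for the optimal list and each replicate's own highest peaks. Bars are exact binomial 95% intervals. Middle and last genes are high at the 5′ end (3.73% and 3.25% in the optimal list), and first and middle genes are high at the 3′ end (3.40% and 3.96%).

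The place of a gap in its run was tied to its length. First gaps had a median of 198 bp, second gaps 158 bp, those in the third place 127 bp and later ones 116 bp. An optimal summit lay in the window of 3.94% of first gaps (102 of 2588, interval 3.22 to 4.76%) and 5.13% of all later gaps (44 of 858, interval 3.75 to 6.82%). Among gaps of 1 to 200 bp the shares were 5.50% and 5.80%. The intervals overlap in both cases, so no difference between first and later gaps was detectable in the optimal list. With all 30000 pooled peaks, a setting added after these data were seen and one that includes background by the authors' own description, 30.3% of all windows held a summit. There first gaps had 41.2% (interval 39.2 to 43.1%) and later gaps 53.4% (458 of 858). By place, second gaps had 51.5%, those in the third place 55.3% and later ones 63.4%. Within gaps of 1 to 200 bp, where first and later gaps both have a median of 104 bp, the values were 53.6% (50.8 to 56.3%) and 65.2% (60.8 to 69.4%). The full lists of the replicates gave 40.9 and 51.2% in replicate 1, against 32.6% of all windows, and 41.8 and 54.9% in replicate 2, against 31.5%. In the full lists later gaps thus held summits more often than first gaps, with intervals that do not overlap. In the pooled list the first gaps of runs of 3 or more genes held a summit in 303 of 606 cases (interval 45.9 to 54.1%) and the last gaps of such runs in 49.7% (45.6 to 53.7%), while the single gaps of runs of 2 had 38.4% (36.3 to 40.6%). First and last gaps of the longer runs thus had overlapping intervals, and both lie above that of the single gaps. Windows in runs of 4 genes gave 6.91% and those in runs of 5 or more gave 5.79%, against 3.94% in runs of 2 and 3.44% in runs of 3. For runs of 4, of 5 or more and of 2 the values were 3.60, 6.18 and 3.13% in replicate 1 and 6.91, 4.25 and 3.99% in replicate 2, so these lists do not order the longer runs alike. The 2000 highest pooled peaks gave 15.0% in runs of 4 (interval 11.4 to 19.3%) and 16.6% in runs of 5 or more (12.3 to 21.7%), above the 9.69% of runs of 2 (8.42 to 11.1%) and the 9.75% of runs of 3. All pooled peaks gave 58.9 and 60.2% in the longer runs against 38.4% in runs of 2, and the medians of the gap were 157, 118 and 204 bp. Within gaps of 1 to 200 bp the 2000 highest pooled peaks gave 16.4, 19.0 and 13.0%, with overlapping intervals, and all pooled peaks 71.8, 66.3 and 51.4%.

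Of the 606 runs with 2 or more gaps, 56 had an optimal summit in the window of any gap: 46 at 1 gap, 8 at 2 and 2 at 3. Neighbouring windows can share a summit, so a run with 2 such gaps need not hold separate summits. The summits of rank 78, 104 and 441 were each the best at 2 gaps of their run. By chromosome the share of windows with an optimal summit was 5.03% on I (interval 3.40 to 7.15%), 5.26% on II (3.67 to 7.28%), 4.44% on III (2.89 to 6.49%), 5.97% on IV (4.12 to 8.32%), 2.21% on V (1.33 to 3.42%) and 2.65% on X (1.07 to 5.39%). Over all gaps the shares were 3.63, 2.61, 3.19, 2.95, 1.42 and 1.58% in the same order, so V and X had the lowest shares there too. The interval of V overlaps those of I, III and X and lies below those of II and IV.

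The replicates ranked the 146 gaps with an optimal summit unevenly. The best optimal rank in these windows ran from 39 to 710, with a median of 369.5. In replicate 1's list the best rank ran from 29 to 18602 (median 547), and in replicate 2's from 38 to 8974 (median 455). A summit among the replicate's own highest 724 lay in 82 of the windows in replicate 1 (56.2%), in 96 in replicate 2 (65.8%) and in 45 in both (30.8%), while 13 had it in neither. A summit among the upper 5000 of both replicates was found in 137 windows (93.8%). These windows were picked for an optimal peak, which contains the reads of both replicates, so peaks in both are partly built in. The share of all windows at that cut was not taken. The ranks often differed between the replicates. Starting from the replicates themselves, 46 of the 115 windows with a replicate 1 summit also had a replicate 2 summit, and the reverse was 46 of 146 (31.5%). Over all gaps these counts were 183 of 369 (49.6%) and 183 of 429 (42.7%).

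**Figure D5:**
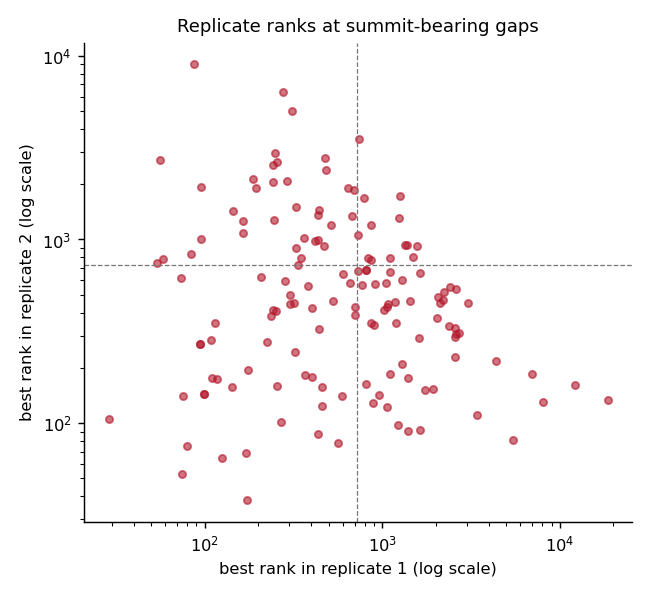
Best rank of any summit in the window in replicate 1 (x axis, log scale) and replicate 2 (y axis, log scale) for the gaps with an optimal summit that had a peak in both lists. Dashed lines mark rank 724. Points lie on both sides of each line, and the 45 gaps within rank 724 in both replicates are at the lower left.

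At hrpa-1/F42A6.6 the summit lay 271 bp past the 3′ end of hrpa-1 and 224 bp past the 5′ end of F42A6.6. It had optimal rank 39, rank 29 in replicate 1 and rank 105 in replicate 2. This was the best rank of any short same-strand gap. At lam-1/W03F8.4, where lam-1 encodes the laminin beta chain of the basement membrane, the summit lay in the gap of 376 bp, 107 bp past lam-1, with rank 52 and replicate ranks 75 and 53. At EEED8.15/tofu-6 it lay 322 bp past the 3′ end with rank 54 and replicate ranks 173 and 38. These 3 gaps are within rank 173 in both replicates.

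At C16A3.5/znf-622 and swsn-4/ard-1, both with gaps of 116 bp, the summits lay 335 bp and 330 bp past the upstream 3′ end, at ranks 62 and 66. The replicate ranks were 125 and 65 for the first and 172 and 69 for the second. At cdl-1/tag-209 the summit lay only 179 bp past the 3′ end, at rank 86, with replicate ranks 434 and 87. The cdc-25.2/F16B4.7 gap had rank 95 with 280 bp, and trap-4/Y56A3A.22, where trap-4 encodes a subunit of the translocon-associated protein complex, had rank 96 with 333 bp. The gap of ccf-1, the Caf1 deadenylase, and znf-593 had rank 127 with 365 bp. All of these summits lay past the downstream gene's 5′ end.

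Some windows shared a summit or stood apart. The summit of rank 78 lay 139 bp inside mutd-1, the gene after hecd-1, and also fell in the window of the following gap mutd-1/cyn-12. The summit of rank 104 lay inside rpl-27, the gene of a large-subunit ribosomal protein, and entered the windows of C53H9.2/rpl-27 and of rpl-27/egl-30, where egl-30 encodes Gq alpha. At rbm-26/arf-1, where arf-1 encodes an ADP-ribosylation factor GTPase, the summit had rank 117 and replicate 1 rank 41, but replicate 2's list held no peak in the window. It was the only 1 of the 146 gaps with no peak in a replicate's list. At ufd-2/pdha-1, a ubiquitin chain elongation factor gene followed by the pyruvate dehydrogenase E1 alpha gene, the ranks were 1227 in replicate 1 and 98 in replicate 2. At E01G4.3/pqn-27 the window lay near cel-mir-4929 and the replicate ranks were 58 and 784. At htz-1/chat-1, where htz-1 encodes the histone variant H2A.Z, the window lay near the snoRNA gene R08C7.19 and the summit was in the gap, 135 bp past htz-1. Which gene such summits belong to was not tested.

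The remaining gaps among the 20 highest summits had ranks from 120 to 147. They were nfx-1/C16A3.6, srgp-1/rib-1, mnk-1/pro-1, cpt-1/alkb-7 and pqn-53/clh-6, where srgp-1 encodes a Slit-Robo GTPase-activating protein, mnk-1 a MAP kinase-interacting kinase, cpt-1 a carnitine palmitoyltransferase and clh-6 a chloride channel. Their summits lay from 185 bp (nfx-1) to 532 bp (srgp-1) past the upstream 3′ end. At mnk-1/pro-1, the longest gap of these 5 at 424 bp, the summit lay in the gap.

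The longest run, 9 genes on chromosome IV, had summits at 3 of its 8 gaps, and they were not adjacent throughout. It begins with sgo-1, the shugoshin gene, and ends with rpap-3. The gaps with an optimal summit were C33H5.13/rsp-6 (rank 423, replicate ranks 1443 and 463), rsp-6/imp-3 (rank 230, within the highest 724 in both replicates) and sec-10/rpap-3 (rank 685, replicate ranks 349 and 791), where rsp-6 encodes an SR splicing factor and sec-10 an exocyst subunit. At tag-321/sec-10 the pooled list held no peak, and the other 4 gaps had pooled ranks from 10338 to 29117. The only other run with 3 such gaps, nfx-1, C16A3.6, C16A3.5 and znf-622 on chromosome III, had optimal ranks 120, 707 and 62 in order. Its middle gap had replicate ranks 309 and 5022. A run of 4 genes that starts with hecd-1 had the shared summit described above at its first and second gaps, and a pooled rank of 4710 at cyn-12/grsp-3.

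Well-known operon pairs were looked up by name. At fib-1/rps-16, fibrillarin followed by a small-subunit ribosomal protein gene, with a gap of 109 bp, an optimal summit was present at rank 489, with replicate ranks 1061 and 428. At gpd-2/gpd-3, glyceraldehyde-3-phosphate dehydrogenase genes of a classic SL2 operon, no optimal summit lay in the window and the best pooled rank was 4412, with replicate ranks 2440 and 13708. At mev-1/ced-9, a succinate dehydrogenase subunit gene followed by the Bcl-2 homologue, with a gap of 3 bp, the best pooled rank was 5188, with replicate ranks 5821 and 3200. The pairs mai-1/gpd-2 and lin-15B/lin-15A overlap in the annotation and are not among the gaps. For deg-3/des-2, vha-11/vha-3 and ppp-1/tra-2 the lookup by name gave no adjacent pair. Whether a name was missing or the genes are not adjacent by start was not told apart.

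Gene groups were compared with the 4.24% of all short same-strand gaps, by the share of gaps flanked by at least 1 member whose window held an optimal summit. Gaps beside cytosolic ribosomal protein genes had it in 12 of 40 cases (30.0%, interval 16.6 to 46.5%), among them rps-22/F53A3.7 (rank 171, replicate ranks 597 and 141) and rpl-26/suf-1 (rank 202, replicate ranks 1627 and 92). The window of rpl-26/suf-1 also lay near the snoRNA gene F28C6.11. The gaps C53H9.2/rpl-27 and rpl-27/egl-30 are among the 12 and share the summit of rank 104, and the interval counts them as separate. Gaps beside spliceosome and splicing factor genes had it in 10 of 43 cases (23.3%, interval 11.8 to 38.6%), with hrpa-1, snrp-27 (rank 191, downstream of ddx-52) and rsp-6 the highest. The intervals of both groups lie above 4.24%.

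For translation factors the count was 4 of 27 (14.8%, interval 4.19 to 33.7%), with sys-1/eif-3.C at rank 253 and eif-2Bepsilon/etc-1 at rank 356. For chaperones and the chaperonin it was 4 of 28 (14.3%, interval 4.03 to 32.7%), with dnj-13, a DnaJ family gene, at rank 161 and hsp-90 at rank 300. The hsp-90 summit lay 311 bp before its 3′ end, in the gene itself, and another protein-coding gene overlapped the dnj-13 gap. V-ATPase subunits had 2 of 7, with vha-20 at rank 433 and vha-1/vha-2, the pair in which both genes are members, at rank 536. Histone genes had 2 of 10, with htz-1 at rank 132 and his-37 at rank 395. The summit at his-37 lay before the gap, 190 bp before the 3′ end of the upstream gene C50F4.6. The last 2 groups are too small for their intervals to be narrow, 3.67 to 71.0% and 2.52 to 55.6%.

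The intervals of these 4 groups and of the other groups include 4.24%. The others were tRNA synthetases (2 of 17, with yars-2 at rank 247), respiratory chain and ATP synthase genes (4 of 41, with ndub-2 at rank 397), DEAD-box helicases (1 of 11, ddx-52), vesicle traffic genes (5 of 61, with sec-24.1 at rank 299), chromatin and histone modification genes (5 of 65, with swsn-4, lin-53 at rank 160 and hda-3 at rank 190) and proteasome subunits (1 of 18, pas-3 at rank 337). Genes of RNA polymerase II, TFIID and Mediator had 2 of 48 (4.17%), with mdt-10 at rank 261 and rpb-9 at rank 441. Mitochondrial ribosomal protein genes, of which 58.6% lie in runs, had 2 of 51 (3.92%), with mrps-30 at rank 435 and mrps-22 at rank 603. Cytosolic and mitochondrial ribosomal protein genes thus both often lie beside short gaps, and the intervals of their shares, 16.6 to 46.5% and 0.478 to 13.5%, do not overlap.

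Gaps with a summit also differed in the letters at the start of the downstream gene, which the rule did not use. TTTCAG, searched on the strand of the gene in the 10 bases before the annotated 5′ end, was present at 13.9% of the downstream genes of the gaps (478 of 3446), 13.3% of all protein-coding genes, 17.7% of first genes of runs and 13.2% of genes after same-strand gaps over 500 bp. The motif is thus about as common at these gaps as over all genes and after longer same-strand gaps. It is less common there (interval 12.7 to 15.1%) than at first genes of runs (16.3 to 19.3%). Among gaps with an optimal summit in the window it was present in 46 of 146 (31.5%, interval 24.1 to 39.7%), and among the others in 432 of 3300 (13.1%). Gaps with a summit were shorter, with a median of 115 bp against 191 bp. Within gaps of 1 to 200 bp the shares were 28.7% with a summit and 14.5% without.

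The looser match was also more common with a summit, but unlike TTTCAG it was more common at these gaps than over all genes. The gap closed with AG, which the other motif's letters also contain, at 35.5% of downstream genes of the gaps (interval 33.9 to 37.1%). The same letters preceded 27.6% of all protein-coding genes (27.0 to 28.2%) and 33.8% of first genes of runs. With a summit the gap closed with AG in 64.4% of cases (94 of 146, interval 56.0 to 72.1%), as at C16A3.5/znf-622 and swsn-4/ard-1 above, and without one in 34.2%. By gap length it was highest over 100 and up to 200 bp (46.4%) and 25.3% over 400 and up to 500 bp. At the other end of the gap, the polyadenylation signal AATAAA, searched on the gene's strand in the last 40 bases of the upstream gene, was present in 52.1% of gaps with a summit (interval 43.6 to 60.4%), 45.4% of gaps without, 48.0% of last genes of runs and 47.3% of all protein-coding genes. Those intervals overlap. The base composition of the gaps was similar, with a median of 31.2% G and C with a summit and 31.5% over all the gaps, against 35.4% for the genome. A match describes the letters at the annotated ends, which follow the transcripts each gene model rests on.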

How the data were processed

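AMA-1 ChIP-seq peak lists of 2 biological replicates (1 group) were used on the ce11 build. The deposited signal value per peak, on a scale the files do not state, ranked peaks within a list. The deposited −log10 q-value per peak was not used. Peaks were thresholded by irreproducible discovery rate for the optimal list, per the labels' notes deposited with the files. Names of the aligner and peak caller, and the threshold: not given in the sources used here. Lists on ce10 were not used. Columns of other samples: 0.

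Genes came from Ensembl release 115 for WBcel235, and no peak ran past a chromosome end. Adjacent protein-coding genes were ordered by start. Summits (start plus offset, counted from 1) were counted in each gap and in 500 bp on either side with Python 3.11.15, numpy 2.4.6, pandas 2.3.3 and scipy 1.17.1. Shares have exact Clopper-Pearson 95% intervals, which cover counting error only. Gaps with a small noncoding gene within 200 bp of the window (60) and gaps overlapped by another protein-coding gene (43) were marked. The counting was tested on simulated data. Figures were drawn with matplotlib 3.10.9.

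The gaps, gene lists, motifs and settings were chosen with earlier results of these data known, among them that summits lie past 3′ ends, so that pattern is no independent support. Named gaps are those of the 20 highest summits, the best of each length class, the longest run and the runs with most summits, known operon pairs, and up to 3 genes per list by signal. Alternatives were other peak lists, each replicate alone, flanks of 250 bp, gaps up to 200 or 1000 bp, peak overlap of 1 bp, summits over 500 bp apart, and gaps without nearby noncoding or overlapping genes.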

Additional observations from a re-analysis of the deposited data

How the results depend on the processing

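The downstream excess of flank summits kept its direction under every setting run: it was 78.9% when peak overlap of 1 bp replaced the summit, and 87.7 to 94.0% with a single replicate. Windows with a summit were 2.06% with the upper 362 peaks of the optimal list, 2.87% with flanks of 250 bp, 10.7% with the 2000 highest pooled peaks, and 3.34 to 4.24% with a single replicate. They were 5.58% for gaps of 1 to 200 bp and 3.43% for gaps of 1 to 1000 bp. First and later gaps changed order in 1 list: 2.16 and 1.75% in those upper peaks, 10.3 and 12.1% in the 2000 pooled peaks, 2.67 and 3.50% with flanks of 250 bp, and 5.10 and 7.84% for gaps of 1 to 200 bp chained among themselves. Later gaps gave 3.48% for gaps of 1 to 1000 bp. With a single replicate first gaps gave 3.13 to 4.17% and later gaps 3.96 to 4.43%. Gaps with a summit inside were 1.45% in the 2000 pooled peaks, 0.110% for gaps of 1 to 200 bp, 1.89% by peak overlap and 0.493 to 0.580% with a single replicate. Density against the genome was 7.45 in the windows and 1.44 in the gap for gaps of 1 to 200 bp, and 3.54 in the windows for gaps of 1 to 1000 bp. With a single replicate it was 3.90 to 4.96 in the windows and 3.11 to 3.65 in the gap. By length class, the 2000 pooled peaks gave 14.1, 13.8, 8.81, 7.01 and 5.59%. Single replicates gave 4.55 to 5.05, 3.83 to 5.89, 2.94 to 3.45, 1.80 to 3.24 and 1.60 to 2.59%. Within 500 bp on either side of a gene end, the 2000 pooled peaks gave 2.43% at 5′ ends of first genes, 10.4% at 5′ ends after a short gap, 9.43% at 3′ ends before one and 6.07% at 3′ ends of last genes. Single replicates gave 0.850 to 1.12, 3.16 to 4.18, 2.84 to 3.63 and 2.32 to 2.63%. Longer lists hold more peaks, so their shares are higher by construction, and the cause of the other changes was not tested. With all pooled peaks, a setting added after seeing the data, first and later gaps gave 41.2 and 53.4%. Of the values under an alternative, 64 stayed within the 95% interval of the value reported and 38 did not. The order of first and later gaps was turned with the upper 362 peaks. No density could be given by peak overlap, and the flank width does not enter counts inside the gap. No paired analysis was possible because there is 1 group. Read depth is unknown, and the optimal list holds too few summits to order gaps by place in a run.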

Other observations

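The full pooled list of 30000 peaks, which includes background by the authors' own description, showed the same layout in weaker form. It placed a summit in 1523 of the 3446 windows (44.2%), against 30.3% of all windows. Of its 2102 flank summits, counted gap by gap, 1505 lay on the downstream side and 597 on the upstream side (71.6% downstream). Within 500 bp past the upstream 3′ end, 47.6% of gaps of 1 to 100 bp and 47.5% of gaps over 100 and up to 200 bp held a summit, against 27.3, 21.0 and 19.0% in the next 3 classes and 13.8% for same-strand gaps over 500 and up to 1000 bp.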
